A study of Homo sapiens with 6 samples.

Results

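The genes described here encode the digestive enzymes of the lysosome and their closest helpers. They are 11 cathepsins, the peptidase TPP1, 10 glycosidases, 4 sulfatases, 4 lipid hydrolases, 2 activator proteins, 2 sterol carriers and the membrane glycoproteins LAMP1 and LAMP2. The 36 genes were taken by name from a list of lysosomal enzymes, and rows of the deposited table that share a gene name were summed. All 36 were among the 19514 gene names of the table, and 35 of them were among the 12531 that had enough reads to be tested. The remaining member, CTSO, had 22 reads in all.

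The cells were wild-type ARPE-19, an immortal line from human retinal pigment epithelium. They were grown to partial confluence and kept for 24 h in medium with 40 µM tt-DDE or with the DMSO vehicle alone. tt-DDE is trans,trans-2,4-decadienal, a reactive aldehyde that arises when linoleic acid is oxidised. Each group held 3 libraries of polyadenylated RNA, and the labels do not say whether these came from separate cultures, so p-values measure only the spread between libraries, which may be technical. Library totals were 14156421 to 16061373 for the vehicle and 15548067 to 17130543 for tt-DDE. Levels are given as CPM, counts relative to library size, scaled with the TMM factors of edgeR, and comparisons between genes use FPKM, which is also divided by gene length. The epithelial keratins KRT8 and KRT18 were at 748 and 365 CPM in DMSO and at 214 and 145 CPM after tt-DDE, while RPE65, the retinoid isomerase of mature pigment epithelium, had 0 counts in every library. Of 11 pigment epithelium markers tested 3 rose, 5 fell and 3 did not pass. Among those that rose were BEST1, a chloride channel, at 0.506 and 21.6 CPM, and MERTK, a receptor for engulfing outer segments, at 2.52 and 13.3 CPM. Exon overlaps with other genes were looked up for the members only. Reads of an overlapping gene may therefore be part of these marker levels, which was not tested. As RNA came from whole cultures, fewer cells that express a gene and less of its RNA per cell cannot be told apart.

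Lysosomal hydrolases are made in the endoplasmic reticulum, tagged with mannose 6-phosphate and carried by receptors to an acidic compartment, where they take apart proteins, glycans and lipids in fixed sequences of steps. Cells of the retinal pigment epithelium rely on them to digest the outer segment tips that they engulf from photoreceptors each day. Many lysosomal genes carry in their promoters the sequence CACGTG within a longer element, to which the transcription factor TFEB and its relatives bind.

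After tt-DDE these genes did not move as a block. Of the 35 tested, 16 were higher, 14 were lower and 5 did not pass. These calls use the quasi-likelihood F-test of edgeR at a threshold of 0.05 on p-values adjusted by Benjamini-Hochberg over all genes tested. Among all genes tested 83.3% passed, 41.7% higher and 41.6% lower, so the members' counts lie near this background. Their median log2 fold change was 0.07, against 0.00 over all genes tested. At least 2-fold changes were fewer: 4 members rose and 5 fell that far, where 16.1% of all genes tested did so upward and 16.8% downward. One of the 4, NEU1, had 22 and 45 counts, overlapping groups and a call that was lost in 8 of 14 alternatives. In a further alternative, which did not sum rows, NEU1 was not tested. In 29 of the 35 all libraries of one group lay above all libraries of the other, against 83.9% of all genes tested. The extremes were GLA, alpha-galactosidase A, at 8.62-fold higher, and CTSC, cathepsin C, at 4.81-fold lower.

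**Figure D1:**
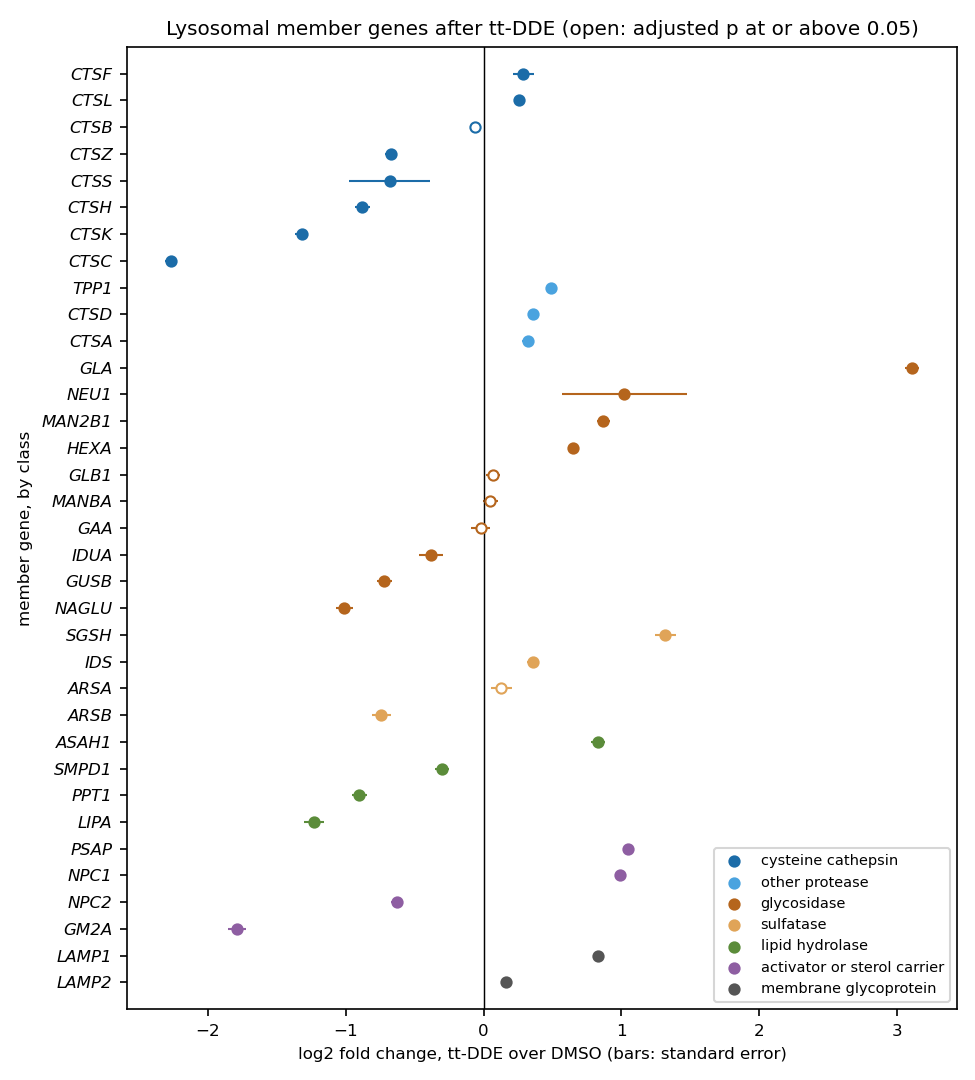
Each point is the log2 fold change of a member gene, tt-DDE over DMSO, with its standard error as a horizontal bar, 3 libraries per group, coloured by class. GLA stands alone at 3.11, the proteases that are not cysteine cathepsins lie between 0.32 and 0.49, and most cysteine cathepsins lie left of 0.

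Promoter windows were looked up because the CACGTG element is a known feature of lysosomal genes. Of the 36 members, 24 matched by symbol to windows of 250 bases before to 50 bases after a RefSeq transcription start (GRCh38.p14). CACGTG, which reads the same on both strands, was present in windows of 7 of the 24 (29.2%), against 12.5% of the 10216 tested genes that have a window. Of 11 matched members that rose 5 held it, the poorly measured NEU1 among them, and of 11 that fell 1 did. Shares among all genes that rose or fell were not computed, for this or the sequences below, so such splits have no background. Members without a window, such as PSAP and SGSH that rose and CTSK and NAGLU that fell, are not covered. The longer form TCACGTGA, which contains CACGTG, was in windows of CTSA, GAA and LAMP1 and in 2.27% of tested genes. LAMP1 held CACGTG at 6 places, as the whole window shows (chr13:113296989-113297288, plus strand, CACGTG in capitals).

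LAMP1: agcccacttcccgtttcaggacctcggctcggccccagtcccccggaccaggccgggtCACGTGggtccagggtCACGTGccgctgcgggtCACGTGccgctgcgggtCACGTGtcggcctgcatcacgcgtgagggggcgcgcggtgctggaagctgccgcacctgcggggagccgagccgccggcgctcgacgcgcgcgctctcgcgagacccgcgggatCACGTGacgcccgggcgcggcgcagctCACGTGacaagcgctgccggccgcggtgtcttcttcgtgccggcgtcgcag

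The sites of the other 6 members are shown with 7 bases on each side, so that their flanks can be compared. That of CTSD lies 47 bases before its start (chr11:1763962-1763981, minus strand). Those of CTSA lie 42 and 25 bases before the start (chr20:45891286-45891305 and chr20:45891303-45891322, plus strand), and those of GAA 76 and 31 bases before it (chr17:80101498-80101517 and chr17:80101543-80101562, plus strand). The site of NEU1 lies 126 bases before its start (chr6:31862935-31862954, minus strand). The ARSB window of the start at 78985310 has no site. That of the start at 78985958 has a site 160 bases before it (chr5:78986106-78986125, minus strand). The sites of CTSF lie 123 and 51 bases before the start (chr11:66568717-66568736 and chr11:66568645-66568664, minus strand). For ARSB, CTSA and GAA the starts used are not the gene starts of the deposited table. Of the 6 genes CTSD, CTSA and CTSF were higher after tt-DDE, ARSB was lower and GAA did not pass. NEU1 was called higher from few reads, with overlapping groups.
CTSD: ccgcgccCACGTGaccggtc
CTSA, distal: agactgtCACGTGgcgccgg
CTSA, proximal: cggagttCACGTGactcgta
GAA, distal: gccgcgtCACGTGacccacc
GAA, proximal: cgccggtCACGTGacccgcc
NEU1: gcgtgatCACGTGggaggag
ARSB: caataagCACGTGactaaag
CTSF, distal: taacaagCACGTGatagagg
CTSF, proximal: cgcgcccCACGTGcctcctg

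The window of GLA, the member that rose most, is shown because it lacks CACGTG (chrX:101407876-101408175, minus strand). Capitals mark its match to TGACNNNGC, the core of the antioxidant element that NRF2 binds, which begins 17 bases after the start.

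GLA: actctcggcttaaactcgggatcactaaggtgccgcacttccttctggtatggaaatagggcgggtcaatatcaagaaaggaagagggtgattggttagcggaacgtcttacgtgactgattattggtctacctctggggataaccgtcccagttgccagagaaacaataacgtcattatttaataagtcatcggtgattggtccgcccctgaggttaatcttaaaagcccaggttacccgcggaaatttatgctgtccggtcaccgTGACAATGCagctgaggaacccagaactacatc

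TGACNNNGC, searched on both strands, was in windows of 13 of the 24 matched members, 5 of the 11 that rose and 7 of the 11 that fell, and in 19.4% of tested genes. TGATGNAAT, an ATF4 and CEBP composite element, was in none of the 24 and in 0.764% of tested genes. At so low a share, its absence from 24 genes says little. A match describes the letters of a window and does not show binding.

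A pair of transcripts held about as many reads as all other members in DMSO and more than these after tt-DDE. CTSD, the aspartic protease cathepsin D, and PSAP, whose precursor protein is cut into the saposins that present lipids to hydrolases, held 48.7% to 49.7% of the members' counts in the DMSO libraries, against 58.1% to 59.7% in the tt-DDE libraries. The 36 genes together took 0.886% to 0.908% of all counts in the DMSO libraries, against 1.09% to 1.17% in the tt-DDE libraries. Without CTSD and PSAP the summed level was 4406 to 4425 CPM in DMSO and 4699 to 4867 CPM after tt-DDE. Per length, CTSD ranked first in both groups at 1266 and 1520 FPKM and PSAP ranked second at 665 and 1289 FPKM. GLA moved from rank 16 (28.2 FPKM) to rank 3 (228 FPKM), and CTSC from rank 11 (62.0 FPKM) to rank 24 (12.1 FPKM). Over the 35 tested members, the DMSO level on the log2 FPKM scale and the log2 fold change showed almost no relation (Pearson's r -0.03, Spearman's rho 0.01, across genes, which share the same libraries).

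**Figure D2:**
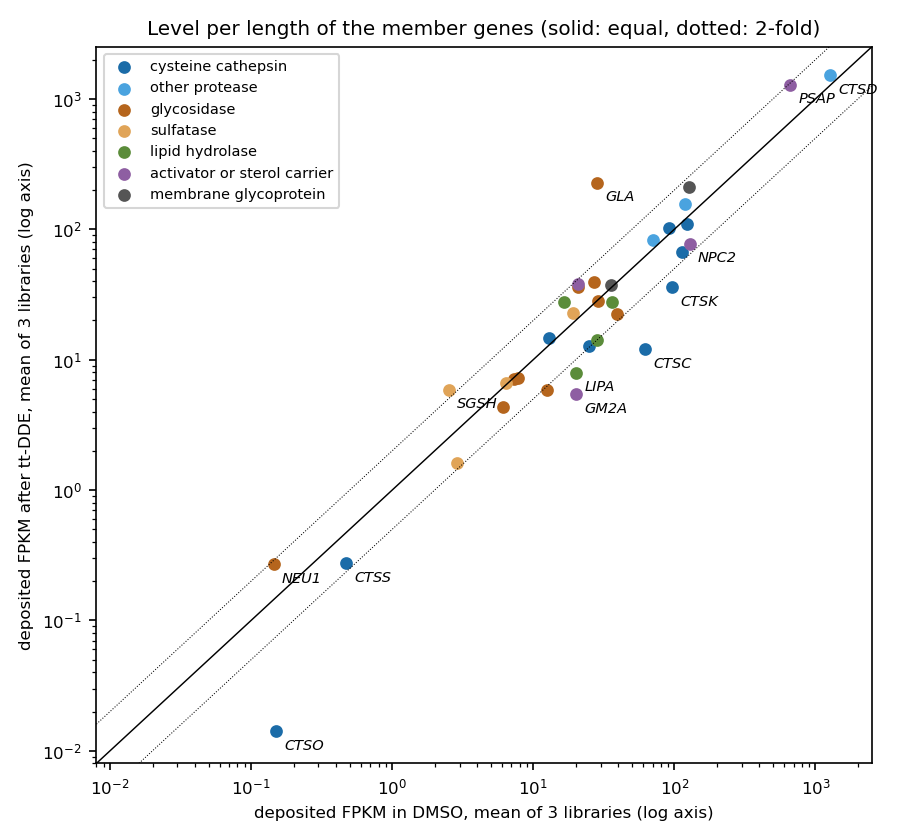
Each point is a member gene at its mean deposited FPKM in DMSO (horizontal, log axis) and after tt-DDE (vertical, log axis), 3 libraries each. CTSD and PSAP lie at the top right, GLA lies far above the line of equal levels, CTSC lies farthest below it among members above 1 FPKM, and NEU1, CTSS and CTSO lie at the bottom left.

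Of the cysteine cathepsins, which are papain-like proteases, 5 of the 8 tested fell, 2 rose and CTSB did not pass. CTSC (chromosome 11, 88293592 to 88337736, minus strand), dipeptidyl peptidase 1, which activates serine proteases of granules, was at 462, 465 and 440 CPM in the DMSO libraries and at 99.2, 90.8 and 94.1 CPM after tt-DDE. The groups lay far apart, with a log2 fold change of -2.27 (SE 0.0412, edgeR adjusted p = 6.64e-40). CTSK, cathepsin K, a collagen-cleaving enzyme best known from osteoclasts, was at 153, 151 and 151 CPM in DMSO and at 61.7, 57.1 and 62.9 CPM after tt-DDE. This was 2.50-fold lower (log2 fold change -1.32, SE 0.048, edgeR adjusted p = 4.25e-28). CTSH, an aminopeptidase, was at 76.4 to 78.6 CPM and then at 41.2 to 42.8 CPM (-0.88 on the log2 scale, SE 0.0555). CTSZ, a carboxypeptidase also called cathepsin X, was at 158 to 172 CPM and then at 102 to 107 CPM (-0.67, SE 0.0442).

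CTSS, cathepsin S, which trims the invariant chain in antigen-presenting cells, was near the bottom of the range. Its libraries held 27, 27 and 31 counts in DMSO against 19, 17 and 17 counts after tt-DDE, with no overlap between groups. The log2 fold change was -0.68 (SE 0.295, edgeR adjusted p = 0.0323), but the call was lost when any library other than DMSO replicate 2 was left out and with DESeq2 (adjusted p = 0.0576 to 0.122). CTSO, a cathepsin of little-known function, had 8, 5 and 7 counts with DMSO against 1, 0 and 1 after tt-DDE. Its 20 and 2 counts give a level 9.99-fold lower after tt-DDE (exact 95% counting interval 2.43 to 88.2), with no test in the main analysis. Without the filter on low counts, and with DESeq2, CTSO was tested and called lower. Markers of macrophages and microglia, which express CTSS, were low throughout: the 18 markers summed to 3.72 to 4.26 CPM in DMSO and to 11.3 to 15.9 CPM after tt-DDE. Of these 6 had 0 counts in every library, AIF1, CD163, TYROBP, C1QB, C1QC and P2RY12. Of the 4 markers with enough reads 3 rose and 1 did not pass, and their part in the level of CTSS was not tested. Markers of osteoclasts, 6 genes, summed to 49.0 to 56.2 CPM in DMSO and 48.0 to 53.0 CPM after tt-DDE while CTSK fell, and CALCR among them had 0 counts throughout. Of the 3 tested, NFATC1 was 2.33-fold and ITGB3 1.32-fold higher and TNFRSF11A was 1.75-fold lower, and their part in the level of CTSK was not tested.

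The cysteine cathepsins that rose did so slightly. CTSL, the endopeptidase cathepsin L, was at 157, 155 and 156 CPM in DMSO and at 188, 180 and 195 CPM after tt-DDE, a log2 fold change of 0.26 (SE 0.0409). CTSF was at 24.7 to 28.3 CPM and then at 30.9 to 33.2 CPM (0.29, SE 0.0751). CTSB, cathepsin B, the most abundant cysteine cathepsin in reads, was at 591, 572 and 579 CPM in DMSO and at 548, 541 and 577 CPM after tt-DDE. These groups overlapped, and its change of -0.06 did not pass (edgeR adjusted p = 0.0907). With library size alone in place of TMM, which shifts every gene by -0.09, CTSB passed at -0.16. It also passed without tt-DDE replicate 3 (-0.09), without the filter on low counts (-0.09) and with limma on FPKM (-0.15), lower each time. The symbol has 2 rows, and that on the primary chromosome, with 42.7% of its reads, passed on its own at -0.11. The other row, with 57.3% of the reads, did not pass (-0.04, edgeR adjusted p = 0.323).

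The remaining proteases rose, 3 of 3. CTSD (chromosome 11, 1752755 to 1763927, minus strand) was at 2563, 2451 and 2552 CPM in DMSO and at 3263, 3003 and 3415 CPM after tt-DDE. All tt-DDE libraries lay above all DMSO libraries, although the difference was modest (log2 fold change 0.36, SE 0.0359, edgeR adjusted p = 2.46e-12). TPP1, a tripeptidyl peptidase lost in a childhood form of neuronal ceroid lipofuscinosis, was at 394 to 405 CPM and then at 550 to 593 CPM (0.49, SE 0.0362). CTSA, a serine carboxypeptidase that also protects beta-galactosidase and neuraminidase from degradation, was at 203 to 218 CPM and then at 257 to 278 CPM (0.32, SE 0.04). Exons of CTSA overlap those of PLTP on the other strand over 8.55% of their length, and PLTP was at 36.6 and 42.5 CPM. They also overlap NEURL2 over 10.4%, a gene listed at 0.0 CPM in both groups. Whether counting used strand is not given in the sources used here.

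Glycosidases moved in both directions, with 4 higher, 3 lower and 3 not past of 10. GLA (chromosome X, 101397803 to 101407925, minus strand) removes terminal alpha-galactose from globotriaosylceramide, the lipid stored in Fabry disease. It was at 39.9, 37.8 and 35.1 CPM in the DMSO libraries and at 304, 341 and 326 CPM after tt-DDE. The lowest tt-DDE library was far above the highest DMSO library, and the log2 fold change was 3.11 (SE 0.0509, edgeR adjusted p = 1.21e-41). It kept this size in every alternative analysis of counts, from 3.02 with library size alone to 3.15 without tt-DDE replicate 1. MAN2B1, the lysosomal alpha-mannosidase of glycoprotein breakdown, was at 65.1, 64.1 and 64.7 CPM in DMSO and at 113, 120 and 121 CPM after tt-DDE (0.87, SE 0.0487). HEXA, the alpha chain of beta-hexosaminidase, was at 130 to 133 CPM and then at 203 to 210 CPM (0.65, SE 0.0404).

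**Figure D3:**
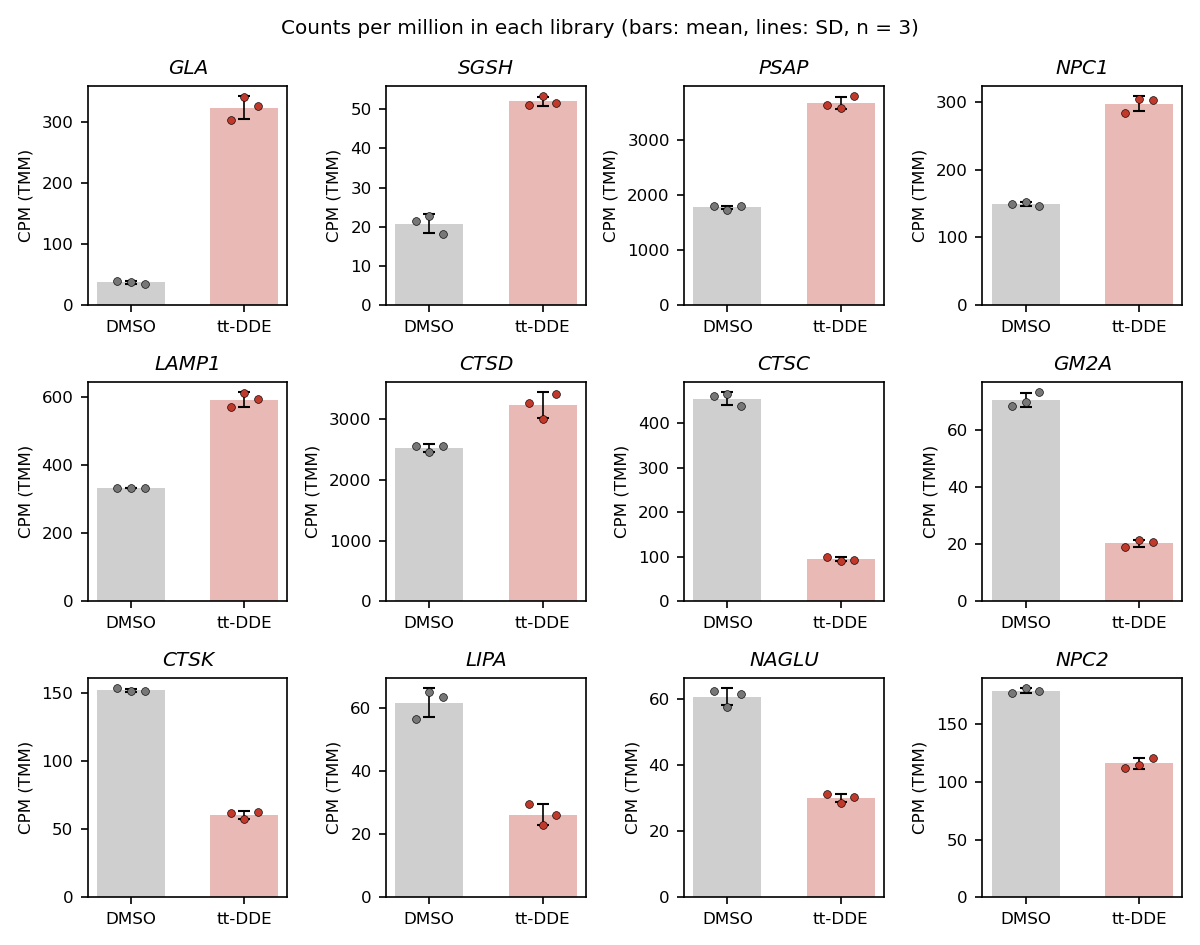
Each panel shows the TMM-scaled CPM of a member gene in the 3 DMSO and 3 tt-DDE libraries as points, with the group mean as a bar and the SD as a line, on axes that start at 0. In the panels of GLA, SGSH, PSAP, NPC1, LAMP1 and CTSD every tt-DDE library lies above every DMSO library, and in those of CTSC, GM2A, CTSK, LIPA, NAGLU and NPC2 every one lies below.

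NAGLU, GUSB and IDUA, which act on glycosaminoglycan chains, were the glycosidases that fell. NAGLU, alpha-N-acetylglucosaminidase, was at 62.4, 57.6 and 61.5 CPM in DMSO and at 31.1, 28.6 and 30.2 CPM after tt-DDE, 2.02-fold lower (log2 fold change -1.01, SE 0.0632, edgeR adjusted p = 2.94e-19). GUSB, beta-glucuronidase, was at 83.9 to 86.8 CPM and then at 51.3 to 52.4 CPM (-0.72, SE 0.0526). GUSB has transcribed pseudogenes elsewhere in the genome, so that reads could be divided between copies. IDUA, alpha-iduronidase, was at 21.6 to 23.3 CPM and then at 16.1 to 18.1 CPM (-0.38, SE 0.0889), and its exons overlap those of SLC26A1, at 10.0 and 4.41 CPM, on the other strand.

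GLB1, MANBA and GAA did not pass. GLB1, beta-galactosidase, whose activity at raised pH is used as a stain for senescence, was at 87.9, 93.4 and 93.9 CPM in DMSO and at 94.7, 93.2 and 101 CPM after tt-DDE, with overlapping groups. Its exons overlap those of TMPPE on the same strand over 3.04% of their length, a gene at 4.20 and 5.79 CPM. MANBA, beta-mannosidase, was at 52.6 to 55.5 CPM and then at 54.1 to 58.2 CPM. GAA, which releases glucose from glycogen, was at 34.2 to 36.1 CPM and then at 33.5 to 36.2 CPM. The sign of the GLB1 and MANBA differences depended on the scaling, at 0.07 and 0.05 with TMM and at -0.03 and -0.04 with library size alone.

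NEU1, the lysosomal neuraminidase, could hardly be measured here. Its reads were divided over 8 rows, of which the primary chromosome row had 0 counts and a row on an alternate scaffold of the major histocompatibility region held 88.1%. The sums were 9, 10 and 3 counts in DMSO against 23, 8 and 14 counts after tt-DDE, so the groups overlapped. The test called NEU1 higher at a log2 fold change of 1.02 (SE 0.454, edgeR adjusted p = 0.0368), and the 22 and 45 counts give a ratio of 2.05 (exact 95% counting interval 1.20 to 3.58). The call was lost in 8 of the alternatives, among them without tt-DDE replicate 1 (0.62) and without DMSO replicate 3 (0.61). How reads that match several rows were counted is not given in the sources used here, so the level of NEU1, like that of CTSO, may be an undercount.

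The sulfatases remove sulfate groups from glycans and lipids. SGSH, the sulfamidase of heparan sulfate breakdown, rose most among them, from 21.4, 22.8 and 18.1 CPM in the DMSO libraries to 51.0, 53.2 and 51.6 CPM after tt-DDE. This was 2.50-fold (log2 fold change 1.32, SE 0.0731, edgeR adjusted p = 3.58e-21). CARD14, on the other strand, overlaps 2.03% of its exon length and was at 0.253 and 1.87 CPM. IDS, iduronate 2-sulfatase, was at 142 to 148 CPM and then at 178 to 193 CPM (0.36, SE 0.0417). ARSB, which acts on dermatan and chondroitin sulfate, was at 44.2 to 47.0 CPM and then at 24.8 to 29.9 CPM (-0.74, SE 0.0702). ARSA, which desulfates sulfatide, overlapped between groups, at 25.9 to 29.5 CPM and 26.9 to 32.2 CPM, and did not pass with all libraries (0.13) but did without tt-DDE replicate 2 (0.20, adjusted p = 0.021). Of the 5 members that take apart heparan sulfate, IDS and SGSH rose, and IDUA, NAGLU and GUSB fell. Their summed level was 331 to 339 CPM in DMSO and 330 to 343 CPM after tt-DDE.

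Among the lipid hydrolases 3 of 4 fell. LIPA, lysosomal acid lipase, which frees cholesterol and fatty acids from lipoprotein lipids, was at 56.5, 64.9 and 63.4 CPM in DMSO and at 29.6, 22.9 and 26.1 CPM after tt-DDE. The groups were well separated at 2.35-fold (log2 fold change -1.23, SE 0.072, edgeR adjusted p = 2.68e-20). PPT1, palmitoyl-protein thioesterase, was at 92.7 to 103 CPM and then at 49.7 to 53.7 CPM (-0.90, SE 0.0545), and 27.3% of its exon length overlaps CAP1 on the other strand, a gene at 275 and 257 CPM. SMPD1, acid sphingomyelinase, was at 89.2 to 96.5 CPM and then at 74.4 to 78.6 CPM (-0.30, SE 0.0501). ASAH1, acid ceramidase, which splits the ceramide that SMPD1 yields, went the other way, from 49.7, 50.4 and 55.4 CPM to 92.1, 91.4 and 93.4 CPM (0.83, SE 0.0535, edgeR adjusted p = 9.47e-19).

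Activator proteins and sterol carriers split within each pair. PSAP (chromosome 10, 71816298 to 71851251, minus strand) was at 1796, 1738 and 1798 CPM in DMSO and at 3644, 3581 and 3792 CPM after tt-DDE, 2.07-fold higher (log2 fold change 1.05, SE 0.033, edgeR adjusted p = 1.63e-30). GM2A, the activator that lifts GM2 ganglioside out of the membrane for HEXA, was at 68.4, 69.7 and 73.0 CPM in DMSO and at 19.0, 21.3 and 20.7 CPM after tt-DDE, 3.47-fold lower (log2 fold change -1.79, SE 0.0661, edgeR adjusted p = 7.67e-28). The groups lay apart for both genes, in opposite directions. NPC1, the membrane protein that takes cholesterol from the lysosome, was at 149, 152 and 146 CPM in DMSO and at 284, 304 and 302 CPM after tt-DDE (0.99, SE 0.0397). RMC1, on the other strand, overlaps 3.55% of its exon length and was at 18.2 and 56.0 CPM. NPC2, the soluble carrier that hands cholesterol to NPC1, was at 177, 181 and 179 CPM in DMSO and at 112, 115 and 121 CPM after tt-DDE (-0.63, SE 0.0424). Both members lost in Niemann-Pick type C disease therefore changed beyond the spread between libraries, in opposite directions.

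LAMP1 and LAMP2, the heavily glycosylated proteins that line the lysosomal membrane, both rose but unequally. LAMP1 was at 334, 333 and 334 CPM in DMSO and at 570, 612 and 595 CPM after tt-DDE (log2 fold change 0.83, SE 0.0359). LAMP2 was at 322, 325 and 329 CPM in DMSO and at 372, 365 and 357 CPM after tt-DDE (0.16, SE 0.0357, edgeR adjusted p = 5.5e-05). Its call was lost with library size alone (0.07, edgeR adjusted p = 0.058) and with limma on FPKM (0.07, limma adjusted p = 0.0791).

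Ratios of FPKM between genes whose products work together do not depend on the scaling of libraries. The HEXA to GM2A ratio was 1.39, 1.33 and 1.30 in the DMSO libraries and 7.64, 6.88 and 7.26 after tt-DDE. The NPC1 to NPC2 ratio was 0.161 ± 0.00272 in DMSO and 0.495 ± 0.015 after tt-DDE (SD, n = 3 libraries). That of GLA to PSAP, the source of saposin B which assists GLA, was 0.0424 ± 0.00292 and 0.177 ± 0.0126 (SD, n = 3). All 3 ratios were higher after tt-DDE without overlap. Smaller shifts were seen for LAMP1 to LAMP2 (3.54 and 5.61) and CTSA to GLB1 (2.46 and 2.92). CTSL to CSTB, the gene of the cysteine protease inhibitor cystatin B, went from 0.385 to 0.906. Of 8 pairs computed, 6 are given here and 7 had groups apart. The pairs were chosen after values were seen and restate the changes of their genes, and an exact permutation test of 3 against 3 libraries cannot go below p = 0.1, so the ratios are a description.

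**Figure D4:**
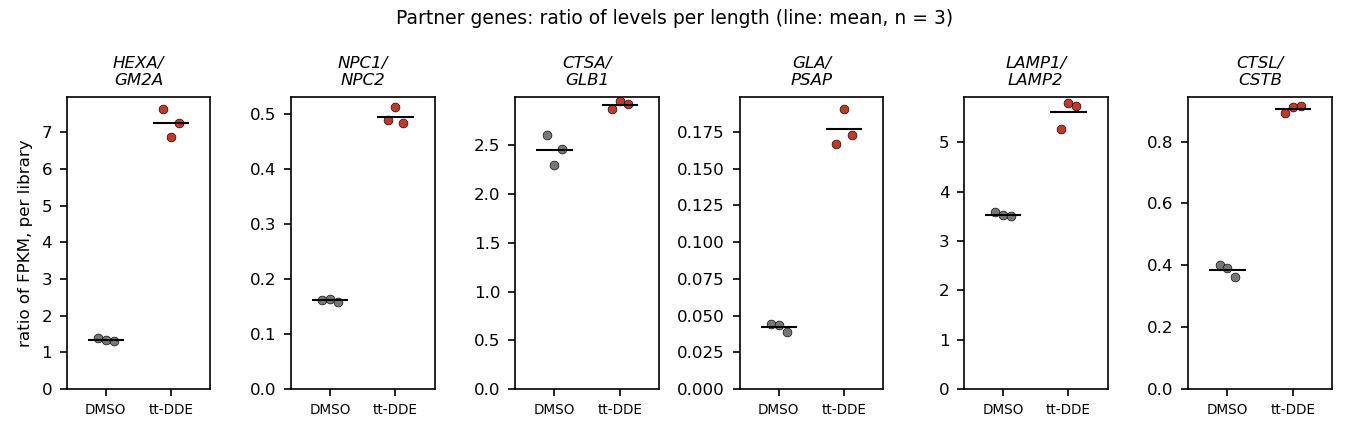
Each panel shows the ratio of FPKM of a pair of partner genes in each library (points, 3 DMSO and 3 tt-DDE) with the group mean as a line, on axes that start at 0. HEXA to GM2A and GLA to PSAP show the widest gaps, at 1.34 against 7.26 and at 0.0424 against 0.177.

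Other lysosomal genes, from lists that did not include the members, moved both ways too. Their counts are to be read against the 41.7% of all genes tested that were higher and the 41.6% that were lower. Of 35 tested genes on a list of further lysosomal enzymes, mostly hydrolases, 11 rose and 17 fell, with a median log2 fold change of -0.13. LGMN, the asparaginyl endopeptidase legumain that processes cathepsins, rose from 48.5 ± 2.10 to 122 ± 6.36 CPM (SD, n = 3), SCPEP1, a serine carboxypeptidase, by 1.17 and GALNS, a sulfatase of keratan sulfate, by 1.08 on the log2 scale. HYAL2, a hyaluronidase, fell from 40.2 ± 1.13 to 9.04 ± 0.91 CPM (SD, n = 3), with IFI30, a thiol reductase, at -1.35 and NAAA, an acid amidase, at -1.24.

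Of 32 tested genes on a list of mainly lysosomal membrane proteins 19 rose and 10 fell, against 41.7% and 41.6% of all genes tested, with a median of 0.32. MCOLN1, the calcium channel mucolipin 1, rose from 20.2 ± 0.393 to 66.7 ± 7.39 CPM (SD, n = 3), the chloride exchanger gene CLCN7 by 1.62 and CLN3, lost in juvenile Batten disease, by 1.39 on the log2 scale. TPCN1, a cation channel, was at -1.85, MCOLN2 at -1.02 and TMEM165, a Golgi ion transporter, at -1.01.

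Of 27 tested genes for tagging and sorting lysosomal enzymes 12 rose and 13 fell, near the 41.7% and 41.6% of all genes tested, with a median of -0.03. IGF2R, the large mannose 6-phosphate receptor, rose from 444 ± 5.71 to 1409 ± 24.1 CPM (SD, n = 3). GNPTAB, which carries the catalytic subunit of the enzyme that starts the mannose 6-phosphate tag, fell from 107 ± 1.86 to 41.9 ± 1.05 CPM (SD, n = 3). SORL1 and SORT1, sorting receptors that do not need the tag, were at -2.72 and -1.75, and the adaptor subunits AP1G1 and AP3D1 at 0.97 and 0.92. SUMF1, which activates every sulfatase, was at -0.99.

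All 5 tested genes on a list of cystatin and serpin protease inhibitors fell, against 41.6% of all genes tested. CSTB was at 136 ± 7.62 and 69.1 ± 2.70 CPM (SD, n = 3), SERPINB6 at -1.02, SERPINB1 at -0.31 and CST3, cystatin C, at -0.10 on the log2 scale. The remaining gene, below the 5 CPM needed to be named, was at -1.88. Whether all of these act on the member cathepsins was not tested. The call of CST3 was lost in 6 of the alternatives (-0.07 to -0.10, edgeR or DESeq2 adjusted p = 0.0507 to 0.151), which leaves 4 of 5. Of 8 genes for TFEB, its relatives and their control, 6 rose and 1 fell, against 41.7% and 41.6% of all genes tested. The folliculin complex genes FNIP2, FLCN and FNIP1, which hold TFEB and TFE3 in the cytoplasm, rose by 1.25, 1.07 and 1.07. The largest rise among the 8, at 2.13, was of a gene below the 5 CPM needed to be named. TFE3 rose from 179 to 210 CPM, and TFEB itself was low at 5.28 and 4.72 CPM and did not pass. The call of MITF (-0.13) was lost in 6 of the alternatives.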

How the data were processed

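Polyadenylated RNA of 6 ARPE-19 libraries was sequenced, 3 per group, with groups and replicate numbers taken from the sample titles. The deposited table holds, per the file headers, the read count and the FPKM of each gene in each library. Deposited counts are whole numbers without normalization. FPKM as deposited by the authors equals count over length and column total in all 91254 values above 0 (relative tolerance 1e-06). Per the submitters' processing notes the genome build was GRCh38.p13. Aligner, counter, strand setting and annotation release are not given in the sources used.

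Of 22312 rows, 2798 were further rows of a symbol, and rows sharing a name were summed to 19514 genes. The two-sided test was glmQLFTest of edgeR 4.0.16 (R 4.3.3) after filterByExpr, TMM and glmQLFit with group alone in the design, and Benjamini-Hochberg adjustment covered the 12531 genes that passed the filter. The test was checked on simulated counts in which few genes changed, equally in both directions. That check does not cover the scaling of libraries where most genes pass, as they did here. SE is the absolute log2 fold change divided by the square root of F. The common dispersion corresponds to a biological coefficient of variation of 3.66%. Alternatives used DESeq2 1.42.0 and limma 3.58.1 on log2(FPKM + 1). Counting intervals are exact, at 95%, and cover counting error only, because reads copied by PCR were not traced to single molecules. By library, 3 counts correspond to 0.175 to 0.212 CPM.

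Between libraries of the same group, chi-square divided by its degrees of freedom was 1.74 to 3.58, above sampling noise, and each library was kept as a sample of its own. Exon overlaps are from GENCODE release 29 on GRCh38 and are given for partners that have a row in the table. All members are reported, and of each other list the 3 genes per direction with the largest change among those past the threshold with at least 5 CPM. SUMF1, CST3, TFE3 and TFEB, and the partner pairs, were chosen after values were seen. Of the partner pairs, 2 are not reported here. Members and lists were chosen with earlier results of these data known.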

Additional observations from a re-analysis of the deposited data

How the results depend on the processing

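Over 14 alternatives, 462 of 489 member log2 fold changes kept their direction and side of the threshold, 16 lost and 6 gained a call, and 5 changed sign. For 27 of 35 members no alternative changed either. Sign changes were all of members that did not pass: GAA without tt-DDE replicate 2 (0.00, in a range of -0.05 to 0.00 with a library left out), GLB1 (-0.03 with library size alone, -0.02 with limma) and MANBA (-0.04 in both). Calls were lost for CTSS, NEU1 and LAMP2 and gained for CTSB and ARSA. The cause was not tested beyond the shift of -0.09 that library size alone gives to every gene. Members called numbered 28 to 30 when a library was left out, 15 to 17 of them higher and 13 to 14 lower. Library size alone gave 14 higher and 15 lower, DESeq2 15 and 14. All genes called numbered 10256 to 11083 over all alternatives, and 45.3% to 51.5% of calls were higher. Same-numbered libraries shared no clear deviation (correlations of deviations -0.0417, 0.0198 and -0.00484), which cannot show whether the replicates were paired. The replicate block gave 29 member calls against 30, without NEU1 (edgeR adjusted p = 0.0515). Depth limits CTSO, with 20 and 2 counts per group, NEU1, with 22 and 45, and CTSS, with 85 and 53.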
